A study of Homo sapiens with 15 samples.

Results

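The comparison described here is that of Rescue2 with KO2, 3 ATAC-seq libraries against 3 out of the 15 libraries of the series. RPTEC are human renal proximal tubule epithelial cells immortalized with hTERT, an established line kept in G418, and all groups share this background. KO2 is a clone in which SETD2 was disrupted by CRISPR with a guide in exon 3. Rescue2 is a single colony of SETD2 KO cells transduced with a lentivirus carrying full-length human SETD2 with a 3×FLAG tag and selected in blasticidin, so that it also differs from KO2 by transduction, selection and a further round of cloning. The names of the deposited lists give both Rescue2 and Rescue1, the other rescue clone, the clone code of KO2 and not that of KO1, the other KO clone, while the methods of the study do not name the KO clone that was transduced. WT, KO1 and Rescue1, with 3 libraries each, took no part in choosing regions, but Rescue1 is by these names not a derivative of KO1 and may share its origin with KO2 and Rescue2. The libraries of a group are replicates of 1 clone, so any p-value measures the spread between libraries of these lines and not between independent clones.

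Peaks of the 6 libraries were merged wherever they overlapped by 1 bp or more, which gave 323696 regions with a median width of 196 bp. A region was called gained if all 3 Rescue2 libraries and none of the KO2 libraries held a peak, and lost in the reverse case. There were 9307 gained regions (2.88% of all merged regions) and 8908 lost regions (2.75%), while 144909 regions (44.8%) held a peak in all 6 libraries and 68232 (21.1%) in 1 library only. A region of 3 against 3 libraries cannot reach a p below 0.1, so these calls carry no test of their own. A region without a peak lies below the calling threshold and is not thereby closed.

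SETD2 is the enzyme that places trimethylation on lysine 36 of histone H3 over the bodies of transcribed genes, and it is frequently inactivated in clear cell renal cell carcinoma. In ATAC-seq the Tn5 transposase inserts sequencing adapters into DNA that is not wrapped in nucleosomes, so that promoters, enhancers and insulators appear as peaks of fragments. Epithelial cells can take on mesenchymal traits in a process driven by transcription factors of the SNAI, ZEB and TWIST families, of which SNAI and ZEB proteins bind the E-box CACCTG, whereas POU factors bind the octamer ATGCAAAT. In a bulk library, fewer cells with an open site and less opening of the site in each cell cannot be told apart.

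Of the 24 short sequences searched, the E-box CACCTG had the largest gap in percentage points between gained and lost regions, and 6 regions are printed to show regions with and without it. They are examples and not typical regions. The gained ones were chosen for their many E-box matches, and the promoters of CCL20 and CLDN4 by name. Over all called regions, CACCTG was found in 27.4% of gained and 9.12% of lost regions. Each line gives the summit and 100 bases on each side of it from hg38, plus strand, with matches to CACCTG, to the related CAGGTA or to the octamer, on either strand, in capitals. The first 3 are gained regions at an intron of PAX2 (a kidney developmental factor, chr10:100807272-100807472), an intron of CSF1R, 3725 bp beyond the end of PDGFRB (a growth factor receptor of mesenchymal cells, chr5:150110014-150110214) and an intron of ZEB1 (chr10:31468333-31468533). The next 2 are lost regions at the promoters of CCL20 (a chemokine, chr2:227813746-227813946) and CLDN4 (a tight junction claudin, chr7:73830870-73831070). The last, a lost region in an intron of TGFB2 (a TGF-β ligand, chr1:218375196-218375396), holds an octamer.
PAX2 intron: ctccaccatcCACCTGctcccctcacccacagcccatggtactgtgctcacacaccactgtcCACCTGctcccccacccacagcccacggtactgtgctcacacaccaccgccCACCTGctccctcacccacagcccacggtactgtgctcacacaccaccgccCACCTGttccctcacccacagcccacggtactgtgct
CSF1R intron: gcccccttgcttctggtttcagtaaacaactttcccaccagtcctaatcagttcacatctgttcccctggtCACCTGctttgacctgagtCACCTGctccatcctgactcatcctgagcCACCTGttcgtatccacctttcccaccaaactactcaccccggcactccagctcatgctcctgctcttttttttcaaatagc
ZEB1 intron: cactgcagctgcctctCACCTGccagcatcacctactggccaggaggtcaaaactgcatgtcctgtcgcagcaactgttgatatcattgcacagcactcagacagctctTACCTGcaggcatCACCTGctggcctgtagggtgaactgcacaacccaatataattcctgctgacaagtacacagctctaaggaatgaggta
CCL20 promoter: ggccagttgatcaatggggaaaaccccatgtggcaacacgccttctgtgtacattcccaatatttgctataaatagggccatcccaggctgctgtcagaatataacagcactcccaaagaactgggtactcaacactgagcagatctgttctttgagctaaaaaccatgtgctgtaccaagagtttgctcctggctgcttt
CLDN4 promoter: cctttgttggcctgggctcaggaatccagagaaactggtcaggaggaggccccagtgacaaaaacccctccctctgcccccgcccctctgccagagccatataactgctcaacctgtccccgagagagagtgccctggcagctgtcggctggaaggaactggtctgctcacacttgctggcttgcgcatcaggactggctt
TGFB2 intron: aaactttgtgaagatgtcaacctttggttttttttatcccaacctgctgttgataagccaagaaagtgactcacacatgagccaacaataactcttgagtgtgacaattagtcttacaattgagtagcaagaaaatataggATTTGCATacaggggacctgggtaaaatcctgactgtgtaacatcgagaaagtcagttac
The guide used for the knockout, with its PAM in capitals, lies in SETD2 at chr3:47122997-47123019, plus strand.
SETD2 exon 3 guide: tagaatatgatgaccctcgtCGG

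No library held a peak over the guide, so the lists could not check the knockout itself. SETD2 (chr3:47016428-47164113, minus strand) had 25 merged regions in the gene and 5 kb on each side, of which 2 were gained and none lost. Both gained regions lay outside the gene, 4851 bp beyond its 3′ end and 1141 bp before its 5′ end. The latter also held a peak in every KO1 library, at 14, 19 and 19 fragments. Of 12 regions with a peak in all 6 libraries, 1 was higher in Rescue2. The summit pileup at the SETD2 promoter (chr3:47163180-47164893) was 54, 47 and 62 fragments in KO2 and 58, 61 and 58 in Rescue2, a log2 difference of -0.03 (SE 0.09) after centring. The promoter of the endogenous gene thus differed by less than the spread between libraries.

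The number of peaks per library was 220315, 220784 and 254650 in KO2 and 265193, 234766 and 208740 in Rescue2, so the groups overlapped. Bases under peaks came to 56.7 ± 4.56 Mb (SD, n = 3) in KO2 and 61.2 ± 6.23 Mb (SD, n = 3) in Rescue2 (exact permutation p = 0.3, two-sided). None of 7 such measures, from median peak width to the shares of peaks in promoters, exons, introns and intergenic sequence, went below an exact permutation p of 0.2 (adjusted p = 0.9 over the 7). The lists give no read totals. The background level solved from each list, which rises with the number of fragments, was 0.830, 0.748 and 0.967 in KO2 and 1.096, 1.089 and 0.920 in Rescue2, and its part in the calls was not tested beyond the equal lists described next. When each library was cut to its 150000 peaks of highest −log10 q, 7077 regions were gained and 7404 lost of 195656, or 3.62% and 3.78%. Leaving out 1 library loosens the rule to 3 against 2, and the count of gained regions rose to 18183 without Rescue2 replicate 3 and to 14415 without KO2 replicate 3, while lost regions rose to 13373 without Rescue2 replicate 1 and to 13604 without KO2 replicate 2.

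Promoter peaks at renal epithelial markers were present in both groups. Of 9 renal epithelial markers, among them EPCAM, CDH1, PAX8, PAX2 and KRT8, 8 or 9 had a promoter peak in KO2 libraries and 8 in Rescue2 libraries, with a summed pileup of 359 to 407 in KO2 and 436 to 469 in Rescue2. This sum and those below are raw pileups, not centred between libraries. The background level given above was mostly higher in Rescue2, so the sums do not compare promoter height between the groups. CDH1, which encodes E-cadherin, was the marker without a promoter peak in Rescue2, and it had 1 in KO2 replicate 1 (12 fragments) and in all WT libraries (16, 16 and 14). The fibroblast markers LUM, DCN and PDPN all had promoter peaks in both groups (summed pileup 72 to 77 in KO2, 68 to 90 in Rescue2). Of 4 endothelial markers 1 or 2 had a peak in KO2 and 2 in Rescue2 (29 to 40 and 23 to 29), of 5 blood markers 1 or 2 in both groups, and of 4 neural markers 3 or 4 in both groups (137 to 163 and 140 to 193). PTPRC, SPI1 and TEK, which define blood and endothelial cells, were at 0 in every library. The part of other cell types in the results was not tested.

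Gained and lost regions were weak peaks. The median summit pileup was 13 fragments in gained and 11 in lost regions, against 26 in regions with a peak in all 6 libraries, and the median rank of −log10 q within a list was at percentile 29.0, 31.9 and 68.0. All 3 peaks lay in the upper 50% of their lists for 625 gained regions (6.72%) and 826 lost regions (9.27%). Gained regions stood closer to shared ones than lost regions did: the median gap to the nearest region with a peak in all 6 libraries was 4581 bp for gained and 9640 bp for lost regions, and 16.7% and 7.24% lay within 500 bp.

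To ask which changes match WT, the regions were looked up in the 9 libraries that had not chosen them. A peak was found at 38.1% ± 3.89 of gained regions in WT, 11.1% ± 1.16 in KO1 and 56.8% ± 2.78 in Rescue1 (SD, n = 3 each). At lost regions the order was the reverse, with 24.7% ± 1.69 in WT, 69.6% ± 3.88 in KO1 and 13.2% ± 1.11 in Rescue1. WT and Rescue1 libraries together were above KO1 by 36.4 percentage points at gained regions, in 6 of 6 libraries, and below KO1 by a difference of -50.7 points at lost regions, also in 6 of 6. Each had an exact permutation p of 0.0238, the smallest that 6 against 3 allows, and 0.0714 after adjustment over 9 tests, which misses 0.05. WT or Rescue1 alone against KO1 gave p = 0.1 (exact permutation), the smallest possible with 3 against 3.

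**Figure D1:**
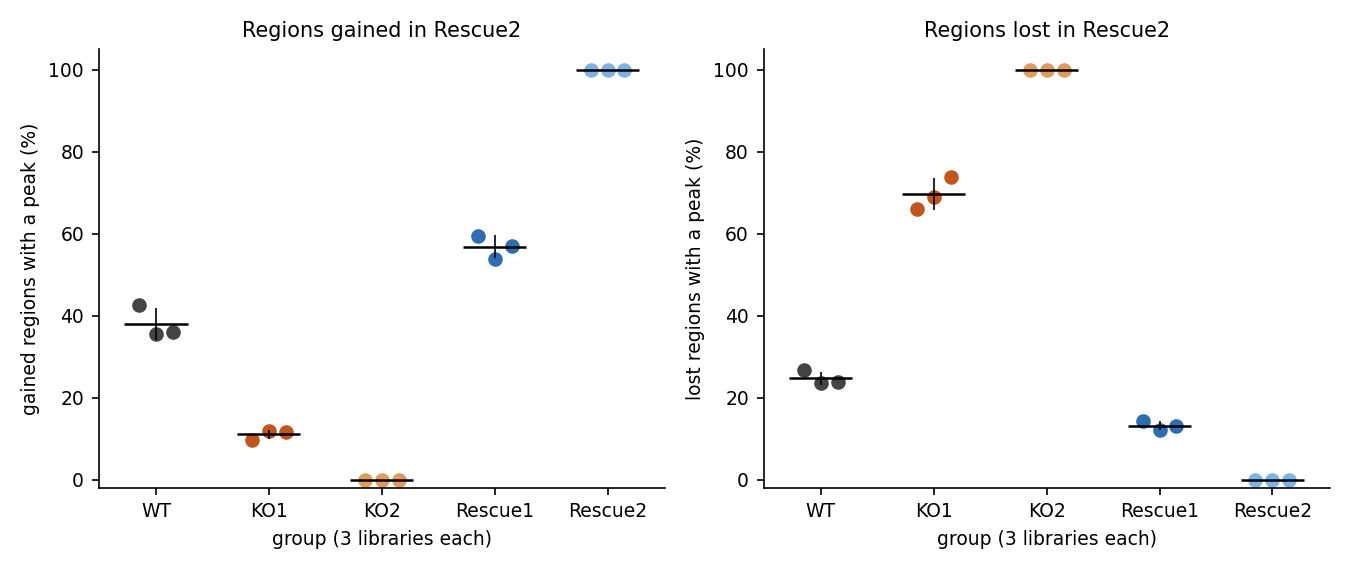
Share of gained regions (left) and lost regions (right) that held a peak in each library, in percent; points are libraries, horizontal bars the mean of 3 and vertical bars the SD. KO2 and Rescue2 sit at 0 or 100 by the rule, whereas WT and Rescue1 lie above every KO1 library at gained regions and below every KO1 library at lost regions.

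Matches to WT were then set against those of the other partly called regions, that is, regions with a peak in some but not all of the 6 libraries and neither gained nor lost, since absence from WT is far more common than presence. Of the lost regions, 5863 (65.8%) had no peak in any WT library, against 60.1% of the other partly called regions. Of the gained regions 2334 (25.1%) had a peak in all 3, against 16.2%. A further 4464 gained regions (48.0%) had no peak in any WT library, that is, a peak in Rescue2 where neither KO2 nor WT held one, and 1416 lost regions (15.9%) were present in all 3 WT libraries, a share near that of the other partly called regions. The count of gained regions found in all 3 WT libraries rose to 4056 without KO2 replicate 3, and that of lost regions absent from WT to 9217 without KO2 replicate 2. With equal lists of 150000 peaks the matching shares were 32.7% of gained and 58.9% of lost regions. The share of other partly called regions was not taken for equal lists.

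KO1, the other KO clone, held KO2's state, and Rescue1 that of Rescue2, at shares above those of the other partly called regions. Absence of a peak was the commoner state there, so shares at gained and lost regions cannot be set against each other. KO1 had no peak at 7333 gained regions (78.8%, against 56.1% of the other partly called regions) and a peak in all 3 libraries at 4810 lost regions (54.0%, against 14.4%). Rescue1 had a peak in all 3 libraries at 3581 gained regions (38.5%, against 16.3%) and none at 6895 lost regions (77.4%, against 54.6%). The full pattern, WT and Rescue1 like Rescue2 and KO1 like KO2 in all 3 libraries each, was found at 954 gained (10.3%) and 2470 lost regions (27.7%). Conversely, 1320 gained regions (14.2%) and 75 lost regions (0.842%) set Rescue2 apart from all 4 other groups. Among the stronger regions, with all 3 peaks in the upper 50% of their lists, 341 of 625 gained (54.6%) and 523 of 826 lost regions (63.3%) matched WT. Rescue2 was opposite to all 3 WT libraries at 167 of these gained (26.7%) and 200 of these lost regions (24.2%). KO1 held KO2's state at 83.5% of these gained and 88.9% of these lost regions and Rescue1 that of Rescue2 at 84.2% and 81.6%. No share over other regions was taken for these stronger regions, for the full pattern or for the regions that set Rescue2 apart.

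The 10 gained regions with the strongest peaks included regions at or near TAF3, BUB3, KIF16B, DHRSX, ATP9B and FAAH2. At an exon of TAF3, which encodes a TFIID subunit (chr10:7827037-7827272), the summit pileup was 0 in all KO2 libraries and 56, 53 and 48 fragments in Rescue2, with 51, 47 and 38 in WT, 17, 15 and 21 in KO1 and 58, 53 and 54 in Rescue1. All groups but KO2 thus held a peak there, although KO1 lay below the others without overlap. In an intron of KIF16B, a kinesin of early endosomes (chr20:16350398-16351064), Rescue2 reached 71, 71 and 63 fragments, WT 43, 39 and 39, and KO1 at most 6. Intergenic sequence on the BUB3 side of chromosome 10 held 3 of these regions between 123203564 and 123301900, none of which had a peak in KO2 or KO1. At the one farthest from BUB3, Rescue2 stood at 62, 54 and 52 and WT at 49, 39 and 42. All 10 regions held a peak in all 3 WT libraries. The regions at DHRSX lie in sequence shared by X and Y, where the placement of reads is uncertain.

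The 10 lost regions with the strongest peaks lay mostly far from genes, and WT held a peak at 3 of them. Near ST6GAL2 (chr2:107248010-107248386) the pileup was 51, 46 and 56 fragments in KO2, 40, 34 and 46 in KO1, 20, 21 and 19 in WT and 0 in all libraries of both rescue clones. In an intron of PTH2R, a parathyroid hormone receptor (chr2:208595569-208596039), KO2 had 45, 39 and 44 and WT 45, 24 and 30, so that loss in Rescue2 moved away from WT, and the same held 486020 bp from POU3F4. The other 7 had no WT peak. At the promoter of MS4A5 (chr11:60428485-60428902) KO2 had 37, 33 and 44 and KO1 31, 24 and 29. The region nearest to CELF2 was 47, 37 and 45 in KO2 and at most 10 in KO1, and those nearest to UNC5D, MAP3K7, NWD2 and IGSF11 had peaks in every library of both KO clones.

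**Figure D2:**
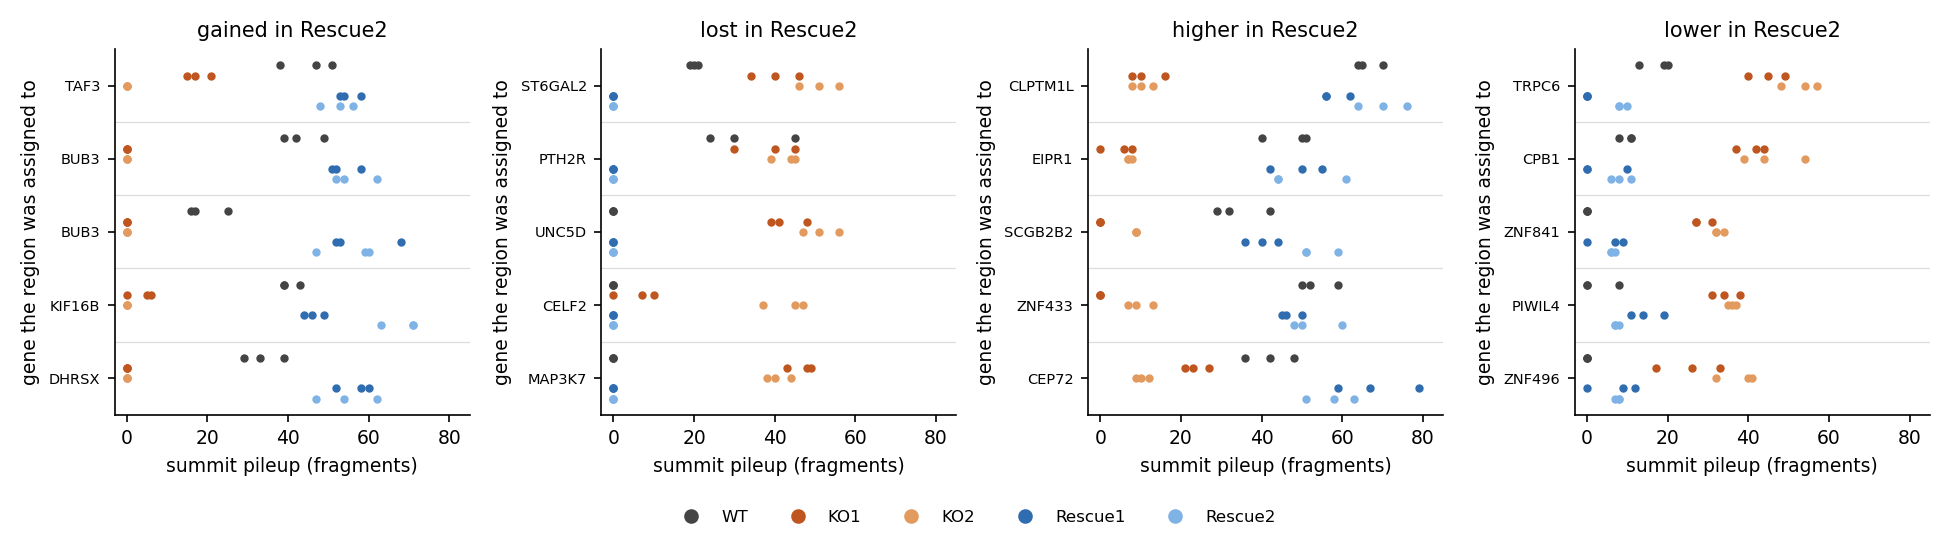
Summit pileup in fragments (x axis) for the 5 strongest gained, 5 strongest lost, 5 most raised and 5 most lowered regions, each row named by the gene it was assigned to; each point is 1 library, colored by group, and 0 means that no peak was called. In the gained and higher panels the Rescue1 points lie to the right with Rescue2 and those of KO1 mostly to the left with KO2, and the reverse mostly holds in the lost and lower panels.

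Peak height was tested in the 144909 regions with a peak in all 6 libraries, by limma on the log2 summit pileup centred on the median of each library. At an adjusted p under 0.05, 15232 regions were higher in Rescue2 (10.5%) and 13493 lower (9.31%). The median log2 difference was 0.63 among the higher and -0.66 among the lower regions, and 1943 and 2238 of them changed by 1 or more on the log2 scale. Measured as fold enrichment over the local background, the counts were 7121 higher and 5844 lower. Correlations of height across these regions were 0.926 to 0.935 between libraries of a clone and 0.826 to 0.838 between the clones.

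The regions that rose most included introns of CLPTM1L, EIPR1, SCGB2B2, CEP72, EFCAB6, FAM117A and DHRS4-AS1, an exon of RASAL2, the promoter of ZNF433 and a region 9306 bp from the start of WDR11. In CLPTM1L, a membrane protein gene beside TERT (chr5:1327040-1328517), the pileup was 10, 8 and 13 fragments in KO2 and 76, 64 and 70 in Rescue2, a log2 difference of 2.63 (SE 0.15, limma adjusted p = 2.48e-25). WT stood at 70, 64 and 65 and KO1 at 8, 10 and 16, so the rescue clone overlapped WT and the KO clones each other. At the promoter of ZNF433, a zinc finger gene of chromosome 19 (chr19:12035175-12035860), KO2 had 7, 9 and 13 and Rescue2 60, 50 and 48 (log2 2.33, SE 0.18, limma adjusted p = 5.51e-19), with 59, 52 and 50 in WT and no peak in KO1. The 10 log2 differences ranged from 2.25 to 2.63.

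Those that fell most included the promoter of CPB1, introns at ZNF841, ZNF496, SPHKAP and PARG, an exon of PIWIL4, and intergenic regions near TRPC6, ADAMTS2, LHX8 and ATP10B. The region 91842 bp from TRPC6, a calcium-permeable channel of the podocyte (chr11:101363552-101364082), had 57, 48 and 54 fragments in KO2 and 10, 8 and 8 in Rescue2 (log2 -2.78, SE 0.18, limma adjusted p = 2.12e-23), with 45, 40 and 49 in KO1, 19, 13 and 20 in WT and none in Rescue1. WT lay between the clones there. At the promoter of CPB1, a carboxypeptidase (chr3:148790829-148791430), KO2 had 44, 39 and 54 and Rescue2 11, 8 and 6 (log2 -2.64, SE 0.19, limma adjusted p = 5.34e-20), and WT, at 11, 8 and 11, overlapped Rescue2. The region at an exon of PIWIL4 fell from 36, 35 and 37 to 7, 8 and 7 (log2 -2.46, SE 0.21, limma adjusted p = 1.58e-16).

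Height in the other libraries followed the same split. Of 9752 regions higher in Rescue2 with a peak in all 15 libraries, the WT mean was above that of KO1 in 70.8% and the Rescue1 mean above that of KO1 in 90.6%. Of 8189 lower regions the shares were 25.5% and 12.7%, and over all 104969 regions with a peak in all 15 libraries they were 49.9% and 49.5%. Both comparisons use the same KO1 libraries, and KO2 and Rescue2 enter neither.

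Gained and lost regions, like other partly called regions, lay away from promoters more often than shared ones. Promoters, taken as 1000 bp before to 100 bp after a transcription start, held 8.00% of gained and 6.89% of lost regions, against 8.30% of the other partly called regions, 16.95% of regions with a peak in all 6 libraries and 12.1% of all merged regions. Introns held 55.7% of gained and 53.6% of lost regions and exons 5.77% and 5.10%. The median distance to a transcription start was 18845 bp for gained, 46769 bp for lost, 23496 bp for other partly called regions and 16821 bp for regions with a peak in all 6 libraries, and 48.7% of lost, 28.7% of gained and 34.5% of other partly called regions lay beyond 50 kb. Lost regions were also poorer in G and C, with a median of 45.3% against 46.8% in the other partly called regions. In gained regions and in regions with a peak in all 6 it was 48.8%.

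Chromosome 19, which carries most zinc finger gene clusters, gained far more regions than it lost. Of its 7695 merged regions 493 (6.41%) were gained and 61 (0.793%) lost. Within ZNF genes of chromosome 19 the share gained was 11.8% (61 of 515), elsewhere on the chromosome 6.02%, and on all other chromosomes 2.79%. Of those gained regions, 42.6%, 38.7% and 24.3% had a peak in all 3 WT libraries.

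Changes also came in blocks. Of 2710 windows of 1 Mb with at least 20 merged regions, 47 had at least 15% of their regions gained and 103 at least 15% lost, while the median window had 2.26% and 2.03%. In the window chr18:79000001-80000000, which holds SALL3, ATP9B, NFATC1 and CTDP1, 41 of 125 regions were gained. The regions with a peak there numbered 30, 30 and 38 in KO2, 108, 94 and 86 in Rescue2, 71, 63 and 60 in WT, 35, 35 and 34 in KO1 and 84, 78 and 83 in Rescue1. The window was chosen for its regions gained in Rescue2, and only regions from the KO2 and Rescue2 lists were counted. That Rescue2 was highest thus follows from the choice. Among the groups that took no part in it, WT lay between KO1 and Rescue1. The others with the highest gained shares were chr1:5000001-6000000 (13 of 27), chr10:7000001-8000000 (18 of 42), chr16:78000001-79000000 (21 of 49) and a window on chromosome Y at 7 to 8 Mb (36 of 72). In the window on chromosome Y, regions with a peak numbered 7, 7 and 8 in KO2 and 13, 9 and 12 in Rescue1, but 63, 55 and 49 in Rescue2, 50, 47 and 45 in WT and 44, 44 and 48 in KO1. The groups there did not divide into KO and rescue clones. The windows with the highest lost shares were chr2:81000001-82000000 (11 of 20), chr3:26000001-27000000 (21 of 45), chr7:89000001-90000000 (14 of 32), chr11:26000001-27000000 (19 of 44) and chrX:144000001-145000000 (9 of 21). The window on chromosome 3 had peaks at 30, 33 and 37 regions in KO2 and 5, 7 and 4 in Rescue2, with 8, 8 and 9 in WT, whereas that on chromosome 2 went from 16, 16 and 19 to 3, 2 and 2 with 12, 11 and 10 in WT. The copy number of these blocks was not tested.

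The gene with most gained regions was TRAPPC9, a subunit of the TRAPP vesicle tethering complex, with 32 of 104 regions in the gene and 5 kb on each side. The regions with a peak were 28, 27 and 36 in KO2 and 91, 81 and 67 in Rescue2, with 53, 49 and 51 in WT, 24, 24 and 27 in KO1 and 65, 61 and 63 in Rescue1. WT lay between KO1 and Rescue1 without overlap. The genes named here were ranked by calls between Rescue2 and KO2, so the difference between these groups follows from the choice. WWOX, a tumor suppressor gene across a common fragile site, had 21 gained of 45 regions, and its regions with a peak went from 2, 3 and 4 to 39, 34 and 30. There WT had only 10, 8 and 6, so that 17 of the 21 had no peak in any WT library. ATP9B, a lipid flippase of the Golgi (15 of 34), went from 4, 4 and 5 to 31, 24 and 21 and reached the level of WT, at 22, 20 and 21. CSMD2, which encodes a large membrane protein, differed, since none of its 12 gained regions had a peak in any WT library or in all 3 Rescue1 libraries, and its regions with a peak were 52, 50 and 41 in Rescue2, 24, 18 and 26 in KO2, 7, 7 and 5 in WT and 10, 8 and 8 in Rescue1. Other genes high by this count were CDH4 (R-cadherin, 22 of 117), SHANK2 (a scaffold protein, 21 of 114), KIRREL3 (14 of 106), KIF16B (13 of 38) and EIPR1 (12 of 24). With equal lists fewer remained at some of these genes, such as 11 at WWOX and 8 at ATP9B.

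Among genes with lost regions, DLG2, a synaptic scaffold, had most with 36 of 181, and its regions with a peak went from 120, 121 and 153 in KO2 to 86, 73 and 62 in Rescue2, with 50, 46 and 53 in WT. EYA1, a transcriptional coactivator that the early kidney requires, had 17 lost of 35 regions and none gained. Its regions with a peak were 27, 29 and 29 in KO2, 24, 24 and 25 in KO1, 7, 6 and 5 in Rescue2, 8, 6 and 7 in Rescue1 and 2, 1 and 2 in WT, and all 17 lost regions were without a peak in every WT library. EYA1 was ranked by regions lost from KO2, so the high counts of KO2 follow from the choice. KO1, which took no part in it, lay above WT and Rescue1 without overlap. The one with the highest mean pileup in KO2, chr8:71498698-71499195, had 29, 22 and 33 fragments in KO2, 16, 17 and 16 in KO1 and no peak in the other groups. GALNT17, a glycosyltransferase gene, was similar, with 13 lost of 51 regions, all absent from WT, and 38, 33 and 44 regions with a peak in KO2, 18, 17 and 15 in Rescue2 and 3, 2 and 2 in WT. CTNNA2, the neuronal α-catenin, went the other way relative to WT: of its 26 lost regions 15 were present in all 3 WT libraries and 7 in all 3 KO1 libraries. The remaining genes were LRRC4C (15 of 73), PIEZO2 (a mechanosensitive channel, 15 of 52), HPSE2 (14 of 65), MACROD2 (13 of 162), CACNA1E (12 of 61) and NKAIN3 (12 of 33). At equal lists 10 lost regions were counted at EYA1 and 12 at CTNNA2.

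**Figure D3:**
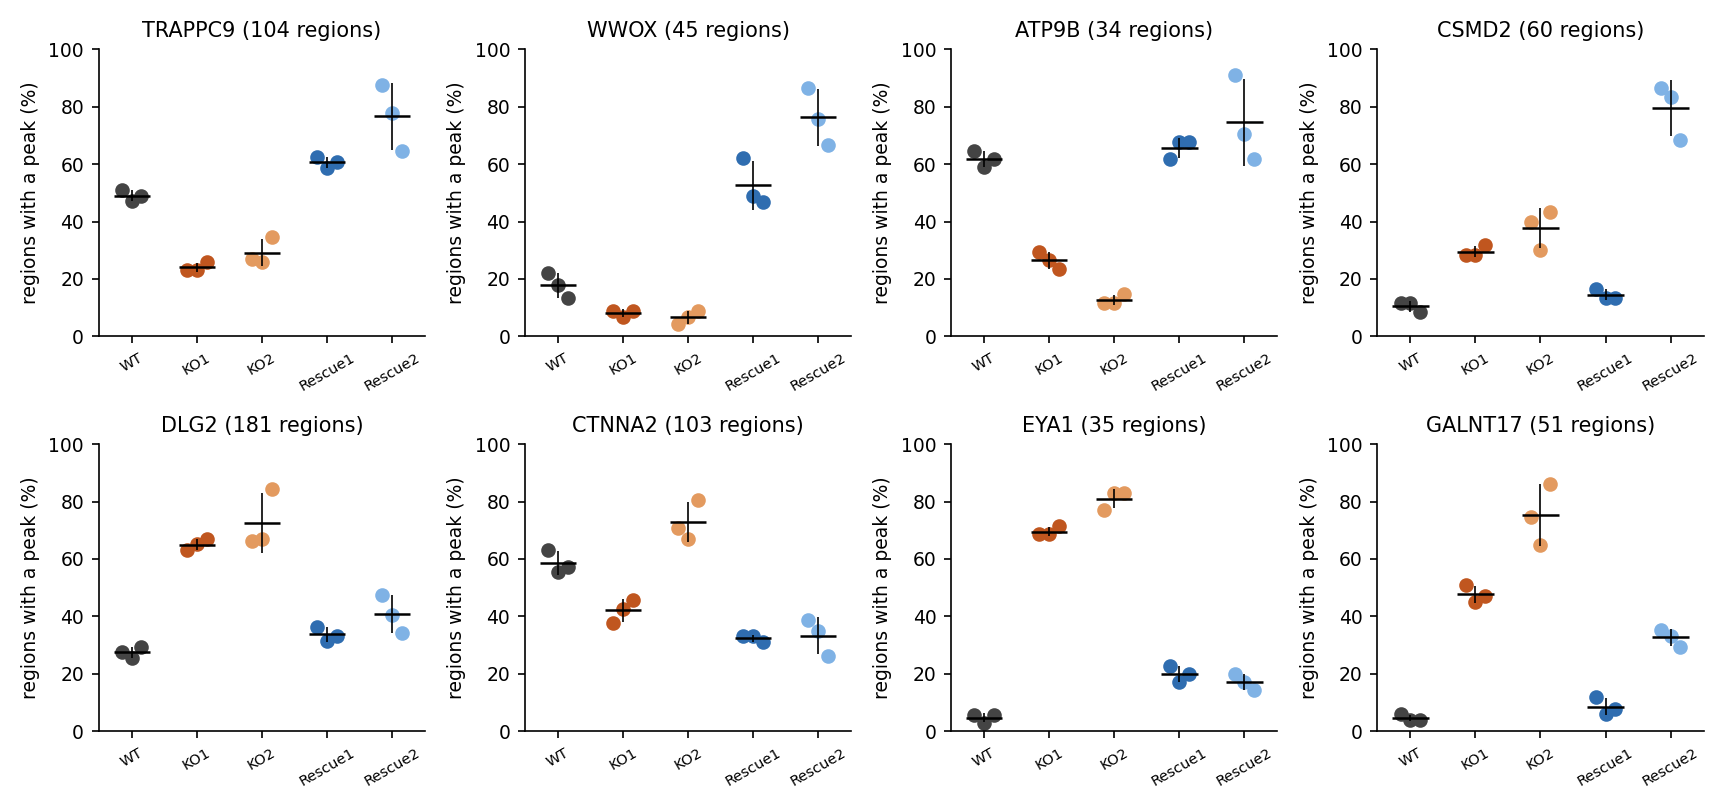
Share of the merged regions of 8 genes that held a peak in each library, in percent; points are libraries, horizontal bars the mean of 3 and vertical bars the SD. The genes were chosen by calls between Rescue2 and KO2. At EYA1 the 3 KO2 libraries held 27 to 29 of 35 regions and the 3 WT libraries 1 or 2, whereas at CSMD2 the Rescue2 libraries held 41 to 52 of 60.

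Gene groups of interest to the kidney and to epithelial-to-mesenchymal transition were then counted in each gene and 5 kb on each side, beside 2.88% gained and 2.75% lost over all merged regions and 10.5% higher and 9.31% lower over all regions tested for height. Nephron progenitor and stemness genes had 1 gained and 19 lost of 183 regions, and 17 of the 19 were those at EYA1, the others lying in an intron of LGR5 and 153 bp outside POU5F1, in an exon of TCF19. Of their 77 regions tested for height 4 were higher and 15 lower. The single gained region lay at an exon of MYC, with 25, 22 and 17 fragments in Rescue2 and 32, 26 and 27 in WT.

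Cytokines, chemokines and growth factors had 9 gained and 15 lost of 458 regions, and 9 higher and 33 lower of 219 tested. The promoter of CCL20, printed above, was lost, with 22, 25 and 24 fragments in KO2 and no peak in any library of the other 4 groups, WT and KO1 included. An intron of CXCL2 (chr4:74097627-74098147) had 36 fragments in all 3 KO2 libraries, 33 to 39 in KO1 and 38 to 44 in WT, and none in either rescue clone. At NRG1, a ligand of ERBB receptors, 6 regions were lost and 4 gained, 1 of them at an internal transcript start. All 6 lost regions lay in introns and were absent from WT, and they made up 6 of the 15 losses of this list. Other lost regions lay at exons of CXCL8 (KO2 45, 39 and 38, WT 51, 37 and 38, Rescue2 0) and near HBEGF, CCL2 and CSF2.

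NF-κB and AP-1 factor genes had 6 gained and 9 lost of 172 regions, with 1 higher and 13 lower of 84 tested. Of the lost regions 4 lay at NFKB1, and a promoter region of NFKBIA, the NF-κB inhibitor (chr14:35403119-35403302), went from 35, 31 and 38 to 0 with no peak in WT. The promoter of FOS gained a region (21, 23 and 18 in Rescue2), while an exon of JUN lost 1 that had 33, 39 and 31 in KO2, 27, 28 and 37 in KO1 and none in WT. The TGF-β pathway had 10 gained and 13 lost of 449 regions and 15 higher and 18 lower of 233. A region was gained at a transcript start within TGFBR1, 23854 bp from the 5′ end of the gene, and SMAD3 had 3 gained and 2 lost regions, so genes of this list moved in both directions.

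EMT transcription factor genes had 2 gained and 5 lost of 245 regions and 8 higher and 15 lower of 121. PRRX1, a mesenchymal homeobox factor, had 3 lost of 14 regions, 1 of them at a transcript start 67028 bp inside the gene (chr1:170729613-170729908) with 11, 10 and 12 fragments in KO2, 10, 9 and 7 in KO1, 8 in 1 WT library and none in the other WT or rescue libraries. SNAI1, SNAI2, TWIST1, TWIST2 and ZEB2 had no gained or lost region, and ZEB1 had 1 gained. Mesenchymal and matrix genes had 7 gained and 9 lost of 377, and 20 higher and 15 lower of 187. In FN1, which encodes fibronectin, a region at 1 of its 27 annotated transcript starts (chr2:215363907-215364067) was gained with 22, 22 and 20 fragments in Rescue2 and 22, 23 and 24 in Rescue1. It lay 72071 bp from the 5′ end of the gene, and a peak at that 5′ end was found in all 15 libraries. The 2 gained regions counted at PDGFRB both lay beyond its 3′ end, by 3725 and 416 bp. Epithelial junction and polarity genes had 4 gained and 4 lost of 349 regions and 20 higher and 9 lower of 160.

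The CLDN4 promoter (chr7:73830763-73831050) had 55, 46 and 49 fragments in WT, 18, 14 and 17 in KO2, and no peak in KO1, Rescue1 or Rescue2. Its loss in Rescue2 was therefore away from WT. Kidney epithelial identity factors had 5 gained and 5 lost of 196, and 8 higher and 11 lower of 93. Of these a promoter region at GATA3 was gained, with 10, 11 and 9 in Rescue2 and 13, 11 and 16 in WT, and 1 at WT1 lost. Proximal tubule transport genes had 9 gained and 3 lost of 277 regions and 21 higher and 10 lower of 138. SLC4A4, the basolateral bicarbonate transporter, carried 4 of the gained regions, SLC22A2, the organic cation transporter, 2 (1 at an internal transcript start) and SLC13A3 2.

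WNT ligands and modulators had 8 gained and 8 lost of 363 regions and 22 higher and 26 lower of 180, with a region at a transcript start of WNT5B lost. Interferon response genes had 7 gained and 3 lost of 203 and 12 higher and 5 lower of 111. H3K36 methylation writers and erasers had 13 gained and 7 lost of 359 and 19 higher and 11 lower of 157, led by KDM4B (4 gained, 1 lost) and NSD2 (3 gained). The markers of endothelial, blood, fibroblast and neural cells had 3 gained and 7 lost of 173 and 8 higher and 6 lower of 87. DCN lost 1 promoter region (16, 21 and 18 in KO2 and 23, 20 and 24 in KO1, with none in WT) but kept another, and CDH5 gained 1. Over all genes with a promoter region, 3.03% had one gained and 2.46% one lost.

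Promoters with a peak in all 6 libraries were also counted by height, beside 7.04% of genes with a higher and 9.35% with a lower promoter region over all protein-coding genes so tested. Of 26 such genes among cytokines, chemokines and growth factors, 7 had a lower and none a higher promoter region. Nephron progenitor and stemness genes had 4 lower and none higher of 12, WNT genes 5 lower and 1 higher of 20, and mesenchymal and matrix genes 5 lower and 2 higher of 18. Epithelial junction and polarity genes had 2 higher and none lower of 16, and interferon response genes 1 lower and none higher of 23.

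Bases under peaks at each gene gave a value per library. Of 18986 protein-coding loci, 24% had all 3 Rescue2 libraries above all KO2 libraries (4550) and 5.19% all below (986). Without Rescue2 replicate 3 the count above was 10306 and without KO2 replicate 3 it was 7561. Without Rescue2 replicate 1 the count below was 1480 and without KO2 replicate 2 it was 1795. Interferon response genes were above at 10 of 23 loci and below at none, whereas cytokines, chemokines and growth factors were above at 6 and below at 8 of 33. Among the 10, OAS1, OAS3 and OAS2 are neighbours whose 5 kb flanks overlap, so that peaks there can count more than once. PRRX1 was below, at 2275, 1932 and 2296 bp in KO2 and 1143, 1363 and 1076 bp in Rescue2.

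The sequence under the summit separated gained from lost regions. CACCTG lay within 100 bp of the summit, on either strand, in 27.4% of gained and 9.12% of lost regions, against 14.7% of regions with a peak in all 6 libraries and 16.0% of all merged regions. Regions called by height held it in 25.2% of higher and 8.49% of lower regions. CACCTG was chosen by a scan over gained or higher against lost or lower regions, so these shares describe the choice and are not a test of it. CAGGTA was found in 10.3% of gained and 3.45% of lost regions (6.0% of all). Among all 2080 sequences of 6 bases, counted once for both strands, CAGGTA and CACCTG had the highest ratios of gained or higher to lost or lower regions. Either E-box was present in 35.5% of gained, 12.3% of lost and 21.1% of all merged regions. The E-boxes that TWIST prefers, CATCTG, were near even, at 16.3% of gained and 17.5% of lost regions.

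The share of regions gained rose with the number of E-boxes, from 2.35% with none to 4.51% with 1 and 7.26% with 2, while the share lost fell from 3.06% to 1.71% and 0.850%. With 3 E-boxes the shares were 7.68% gained and 0.896% lost. CACCTG was chosen on the calls between Rescue2 and KO2, so these shares and the height difference of Rescue2 from KO2 describe the choice. In regions with a peak in all 6 libraries the median log2 difference of Rescue2 from KO2 was -0.02 with no E-box, 0.07 with 1, 0.17 with 2 and 0.22 with 3. WT against KO1, which share no library with KO2 or Rescue2, gave -0.02, 0.08, 0.18 and 0.27. These were taken over the smaller set of regions with a peak in all 15 libraries. Rescue1 against the same KO1 libraries, over that same set, gave -0.02, 0.07, 0.15 and 0.16. With 4 or more E-boxes, in 34 regions for Rescue2 against KO2 and 27 for the others, these medians were 0.22, 0.18 and 0.19. The E-boxes of gained regions were spread broadly around the summit. In 20 bp bins, 4.88% of gained regions held one at -20 bp, 4.85% at 0, 4.58% at 60 and 3.26% at 140 bp. The bin at -20 bp held one in 0.988% of lost regions and 2.10% of regions with a peak in all 6 libraries.

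**Figure D4:**
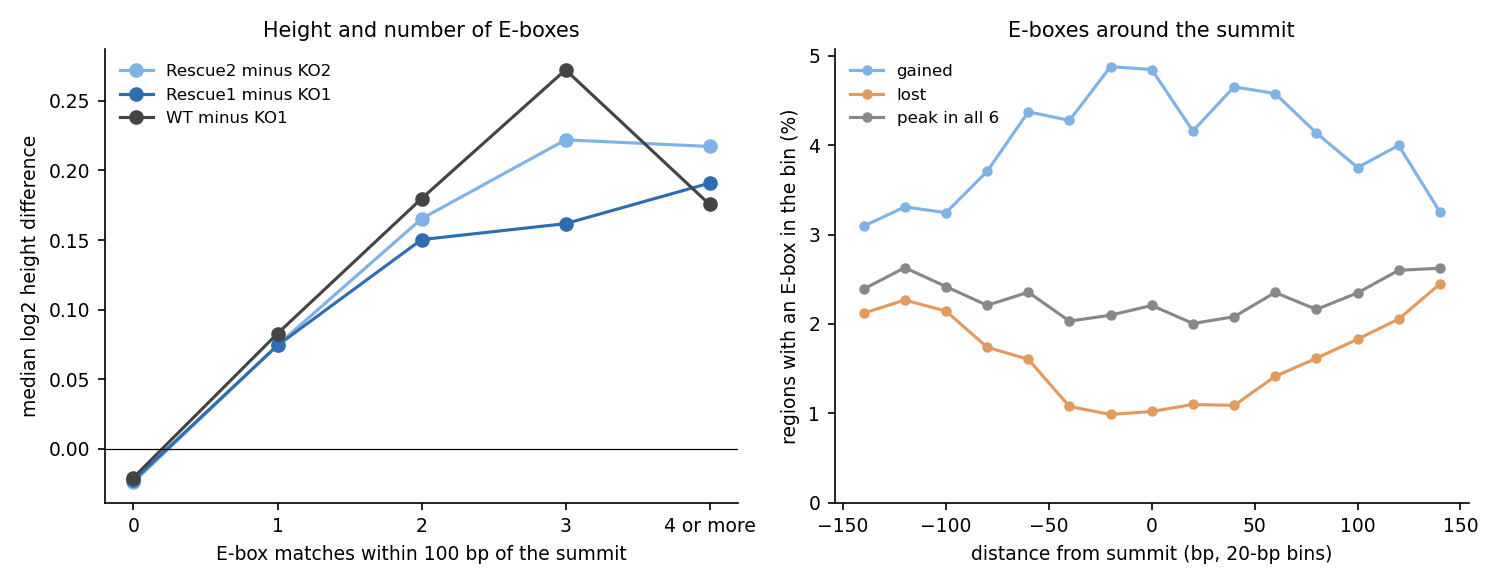
Left, median log2 height difference (y axis) of regions by their number of E-box matches within 100 bp of the summit (x axis), for Rescue2 minus KO2 and for the contrasts of Rescue1 and WT with KO1. Right, share of regions with an E-box in each 20 bp bin around the summit (x axis, bp), in percent, which peaked at 4.88% in gained regions and dipped to 0.988% in lost regions at -20 bp.

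The octamer showed the reverse. ATGCAAAT was found in 0.63% of gained and 3.29% of lost regions, 1.38% of all merged regions, and in 0.67% of higher and 2.91% of lower regions. Of regions with an octamer 6.54% were lost and 1.32% gained. In those with a peak in all 6 libraries the median log2 difference was -0.13 for Rescue2 against KO2. In those with a peak in all 15 libraries it was -0.08 for WT against KO1 and -0.17 for Rescue1 against KO1. The short NF-κB site GGAATTTCC was found in 0.35% of gained and 1.5% of lost regions (0.78% of all). Of regions with this site tested for height, 20.8% were lower and 5.02% higher. The AP-1 site TGANTCA, the most frequent of the 24 sequences searched in regions with a peak in all 6 libraries, was as frequent in gained (29.5%) as in lost regions (29.8%).

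The shares were then taken over the 150000 strongest peaks of each library. Since CACCTG was chosen on the calls between Rescue2 and KO2, the shares of these 2 groups are a description, and only the other 9 libraries, which the scan did not use, were tested. CACCTG was found within 100 bp of the summit in 13.6% ± 0.08 of peaks in KO2 and 16.2% ± 0.12 in Rescue2 (SD, n = 3 each), with 16.8% ± 0.06 in WT, 13.2% ± 0.04 in KO1 and 16.0% ± 0.04 in Rescue1. Each WT and Rescue1 library was above each KO1 library, by 3.20 percentage points on average. The exact permutation p was 0.0238, the smallest that 6 against 3 allows (adjusted p = 0.0397 over the 5 sequences compared). The 6 libraries come from 2 lines and the 3 from a single KO clone. WT or Rescue1 alone against KO1 gave p = 0.1 (exact permutation), the smallest possible with 3 against 3. These contrasts were left out of the adjustment. The occupancy tests included them, and there the same p of 0.0238 missed 0.05 after adjustment. The same p-values held for CAGGTA, which was higher by 1.53 points, and for the octamer, which was lower by a difference of -0.371 points. The octamer was found in 1.43% of peaks in KO2, 1.13% in Rescue2, 1.22% in WT, 1.5% in KO1 and 1.04% in Rescue1. The short NF-κB site did not follow WT: it was found in 0.980% of KO2, 0.795% of Rescue2, 0.718% of Rescue1, 0.946% of KO1 and 1.01% of WT peaks, so that both rescue clones lay below every other group (WT and Rescue1 against KO1, exact permutation p = 0.476).

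**Figure D5:**
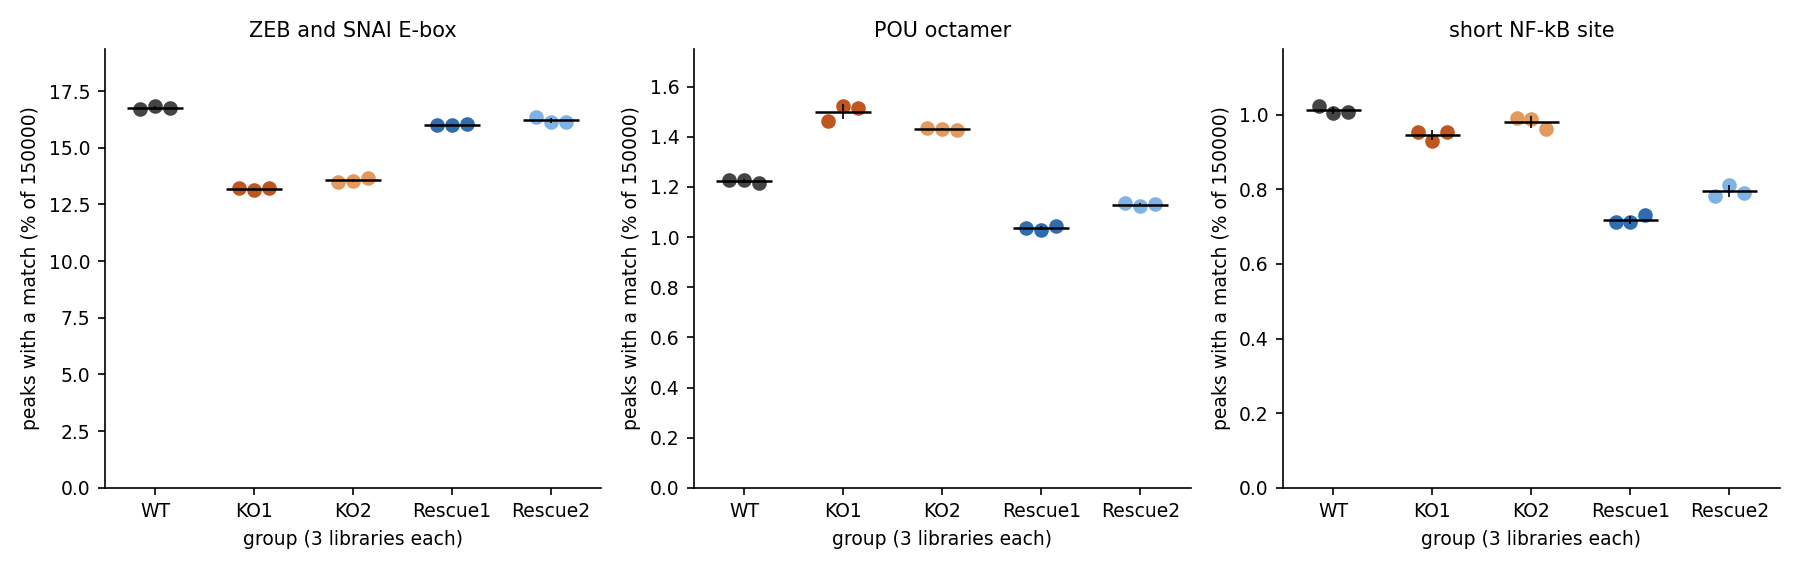
Share of the 150000 strongest peaks of each library, in percent, with a match within 100 bp of the summit for the E-box CACCTG (left), the POU octamer (middle) and the short NF-κB site (right); points are libraries, horizontal bars the mean of 3 and vertical bars the SD. KO1 and KO2 lie below all other libraries in the left panel and above them in the middle panel, while in the right panel WT is highest.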

How the data were processed

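ATAC-seq was performed on 15 libraries, 3 in each of the groups WT, KO1, KO2, Rescue1 and Rescue2. The authors aligned reads to hg38 with BWA (0.7.17 per the labels) and called peaks in each library on its own with MACS2 2.2.7.1. Control tracks, duplicate removal and excluded regions are not given in the sources used here, and the read counts tested by the authors with DiffBind 2.14.0 were not used. Each deposited list holds intervals, summits, a score (10 times the −log10 q), the −log10 q, the −log10 p and the ratio of summit pileup to local background (fold enrichment). The lowest deposited −log10 q was 1.3, that is, a q-value of 0.05.

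Only autosomes, X and Y were used. The pileup of fragments at the summit and the background of each library were solved from fold enrichment and −log10 p, with an answer for 100% of peaks (largest misfit 0.001). The lists give no read depth, so no counting interval was computed. Heights were tested with limma 3.58.1 (trend, robust) with Benjamini-Hochberg adjustment, a procedure tested on simulated data. Values of single libraries were set against each other by two-sided exact permutation tests. Genes came from GENCODE 44. Regions were named by rule: the 10 strongest gained and lost, the 10 largest height changes each way, the 10 genes with most gained or lost regions, the top windows and, of 13 gene lists, the genes with most calls or with a called promoter region. The members and lists were chosen with earlier results of these data known. CACCTG was added after all sequences of 6 bases had been scanned. Other sequences searched on both strands were those of TEAD (GGAATG), HNF4 (CAAAGTCCA), homeobox (TAATTA), SOX (ACAATGG), FOX (TGTTTAC), RUNX (TGTGGTT), C/EBP (TTGCGCAA), ETS (CCGGAAGT), GRHL (AACNGGTT), PAX (GTCACGC) and KLF and SP (GGGCGGGG), and by name GATA factors, HNF1 (long and short), a longer NF-κB site, IRF, CTCF and p53. Some items named by these rules are not reported here. Alternatives were equal lists, a majority rule, other overlaps and thresholds, other normalizations, a replicate block and leaving out each library.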

Additional observations from a re-analysis of the deposited data

Results flagged for a closer look

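The share of the 150000 strongest peaks with an AP-1 site differed in opposite directions between the rescue and KO clones of the same number, although by the names of the lists both rescue clones carry the code of KO2 and the number does not pair Rescue1 with KO1. Rescue2 minus KO2 was -0.398 percentage points, with every Rescue2 library below every KO2 library, whereas Rescue1 minus KO1 was 1.28 points, with every Rescue1 library above every KO1 library. Set against KO2 instead, Rescue1 was lower, at a mean of 33.9% and 34.6%, with every Rescue1 library below every KO2 library. The difference between these differences was not tested, and AP-1 was 1 of 5 sequences compared in this way.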

How the results depend on the processing

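The directions of the results on height, occupancy and sequence held under every alternative run. For WT matches only gained and lost regions were recounted, so their excess over the other partly called regions was not checked there. By contrast, the differences of Rescue2 from KO2 in number of peaks and in promoter, exon, intron and intergenic shares changed sign when 1 library was left out. None of these was past a test. The majority rule gave 38439 gained and 31757 lost regions, of which 8123 and 18974 matched WT, and KO1 in place of KO2 gave 19099 gained and 10313 lost, so the near balance of gained and lost regions did not hold there. Leaving out 1 library at a time gave 10713 to 18183 gained and 9546 to 13604 lost regions, 2487 to 4056 and 6147 to 9217 of them matching WT, 11680 to 13816 higher and 10568 to 11601 lower regions, and 4708 to 10306 loci above and 1024 to 1795 below. The occupancy differences were 33.9 to 38.7 and -52.4 to -48.6 points with 1 library left out, and without a KO1 library the smallest exact permutation p possible, 0.0714, misses 0.05. Height counts were 5607 higher and 4204 lower with a pileup of at least 20 in every library, 8093 and 6687 in a fit of all 15 libraries, and 7121 and 5844 with fold enrichment. At a pileup of at least 20, WT was above KO1 in 73.6% of higher and 32.2% of lower regions and Rescue1 above KO1 in 91.7% and 11.4%. With equal lists the differences of Rescue2 from KO2 were 19 bp in median peak width, 0.0469 points in exons and -0.382 in intergenic sequence, and 7.70% of lost regions lay in promoters. Promoters of 2000 bp on each side held 20.4% of gained and 15.7% of lost regions, and windows of 5 Mb passed 15% gained in 5 and lost in 4 cases. Within 50 bp of the summit CACCTG was found in 15.7% of gained and 3.91% of lost regions, CAGGTA in 4.97% and 1.07%, the octamer in 0.247% and 1.84% and the short NF-κB site in 0.204% and 1.16%. The replicate block gave 14816 higher and 13067 lower regions and by construction left the gained and lost calls, which use no model, at 9307 and 8908. Replicate numbers do not pair the libraries, since the correlations of same-numbered deviations were -0.052, -0.006 and -0.056. Since the lists hold no read depth, how far depth moved the counts of weak peaks was checked here only by the equal lists. The study reports sequencing depth metrics in its supplement, and these were not used here.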
